A study of Mus musculus with 6 samples.

Results

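Macrophages shape their surroundings through the proteins they secrete. The 10 genes described here were taken by name: the cytokine genes Tnf, Il6, Il10, Il1a, Il1rn, Il12b and Osm and the growth factor genes Tgfb1, Vegfa and Igf1. All 10 were found among the 55421 genes of the count table. Of these, 9 passed the filter on low counts and were among the 13588 genes tested, and Il6 did not pass.

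The cells were mouse macrophages grown in culture from bone marrow progenitors. There were 3 libraries from cells labelled Tmem175flox/flox Lyz2-Cre+/-, with the genotype given as Tmem175-/- and called knockout here, and 3 from WT cells, called wild type. TMEM175 is a cation channel of endosomes and lysosomes, and Lyz2-Cre deletes floxed alleles in myeloid cells. The labels name no stimulus, age or strain, so levels are those of cells in culture without a stated trigger. The 6 libraries include none with Cre alone or floxed alleles alone, so loss of Tmem175 and the presence of Cre, its insertion in Lyz2 or the strain background cannot be told apart. The design text names wells and no separate animals, so p-values reflect only well-to-well spread, part or all of which may be technical.

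Total counts ranged from 24179548 to 31542741 per library. Tmem175 stood at 12.1 to 14.3 CPM (counts scaled to library size) in knockout and 32.8 to 33.4 CPM in wild type libraries, and Lyz2 also lay lower in all 3 knockout libraries. None of the 10 macrophage markers was at a count of 0 throughout, and without Lyz2 their summed level was 9718 to 10604 CPM in knockout and 9618 to 10761 CPM in wild type. The first principal component of the libraries, computed without the 10 genes, held 29.3% of the variance and did not separate the genotypes. It placed knockout replicate 1 (2.57) on one side with wild type replicates 1 and 2 (19.9 and 17.5), and knockout replicates 2 and 3 (-17.4 and -13.2) on the other with wild type replicate 3 (-9.41). The sides are the 3 libraries with the highest scores and the 3 with the lowest. Knockout replicate 1 was intermediate, with a score nearer to that of wild type replicate 3 than to that of wild type replicate 2. Neither side held the genotypes evenly, so the component was partly confounded with genotype. No batch given in the labels has this arrangement.

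Tumour necrosis factor, interleukin-1 alpha, interleukin-6 and interleukin-12 start and spread inflammation, and their genes are switched on by NF-kB and related factors when macrophages sense microbes. Interleukin-10 and the IL-1 receptor antagonist, encoded by Il1rn, restrain that response, and TGF-beta 1, VEGF-A and IGF-1 act in tissue repair, vessel growth and cell survival. Messengers of many inflammatory cytokines carry AU-rich elements in their 3′ untranslated region, which RNA-binding proteins such as tristetraprolin (Zfp36) use to speed decay. On GRCm38 with GENCODE M21, the inflammatory cytokine genes are Tnf at chr17:35199381-35202007 (minus strand), Il6 at chr5:30013114-30019981 (plus strand), Il1a at chr2:129299610-129309972 (minus strand), Il12b at chr11:44400063-44414033 (plus strand) and Osm at chr11:4236420-4241026 (plus strand). The restraining factors are Il10 at chr1:131019845-131024974 (plus strand) and Il1rn at chr2:24336853-24351494 (plus strand), and the growth factors Tgfb1 at chr7:25687002-25705077 (plus strand), Vegfa at chr17:46016993-46032369 (minus strand) and Igf1 at chr10:87858265-87937042 (plus strand).

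The sequences below mark the ends of the order of levels given later, from Tgfb1, the highest of the 10, through Tnf to Il6, the lowest. Each is the 250 bases before the transcription start in the RefSeq table (GRCm38.p6), 5′ to 3′ on the gene's strand. They lie at chr7:25686752-25687001 (plus strand) for Tgfb1, chr17:35202008-35202257 (minus strand) for Tnf and chr5:30012864-30013113 (plus strand) for Il6. Capitals mark GGGCGG (the GC box bound by SP1) on either strand in Tgfb1, and, in Tnf and Il6, TATAAA (the TATA box) and a loose NF-kB motif, GGG and CC set apart by any 5 bases, on either strand.
Tgfb1: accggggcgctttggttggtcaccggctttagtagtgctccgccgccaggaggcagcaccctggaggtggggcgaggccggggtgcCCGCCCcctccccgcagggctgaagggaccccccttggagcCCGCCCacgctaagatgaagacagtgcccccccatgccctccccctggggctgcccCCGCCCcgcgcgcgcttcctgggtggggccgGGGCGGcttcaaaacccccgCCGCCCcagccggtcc
Tnf: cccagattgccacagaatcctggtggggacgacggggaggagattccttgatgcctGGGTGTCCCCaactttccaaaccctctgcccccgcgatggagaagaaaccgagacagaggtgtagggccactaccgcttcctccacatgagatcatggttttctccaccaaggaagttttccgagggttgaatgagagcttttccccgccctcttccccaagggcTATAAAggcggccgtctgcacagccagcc
Il6: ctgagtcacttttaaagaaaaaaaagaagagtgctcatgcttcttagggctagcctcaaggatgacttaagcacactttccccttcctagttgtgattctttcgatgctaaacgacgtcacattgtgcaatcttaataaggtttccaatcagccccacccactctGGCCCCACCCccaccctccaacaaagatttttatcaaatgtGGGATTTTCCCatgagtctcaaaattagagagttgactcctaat

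The Tgfb1 window was 75.2% G and C, more than 96.1% of the 32841 promoter windows of this length, against 57.6% for Tnf and 42.8% for Il6. It held 5 GC boxes and no TATAAA, whereas Tnf held TATAAA 29 to 24 bases before the start and Il1a held it 32 to 27 bases before. TATAAA occurred in 12.4% of all windows, GGGCGG in 32.8%, the loose NF-kB motif in 45.8% and the AP-1 motif TGANTCA in 6.75%, each searched on both strands. The Il6 window had no TATAAA and held 3 matches to the NF-kB motif: GGGATTTTCC 44 to 35 bases before the start, one on the other strand that overlapped it, and one 85 to 76 bases before. It also held TGAGTCA, an AP-1 match not in capitals, 249 to 243 bases before the start. In Tnf the single NF-kB match, 194 to 185 bases before the start, read the same motif on both strands. Tnf also held 1 GC box, not in capitals. The NF-kB motif is loose enough to match 10 times, over both strands and with overlaps, in the GC-rich Tgfb1 window, where GC boxes are marked instead. These matches describe letters only.

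The AU-rich stretches of the transcript ends are shown because such stretches are the best-known decay signals of cytokine messengers. For each gene the window of 30 bases with the most ATTTA pentamers is given, with ATTTA in capitals, from the GENCODE M21 transcript with the longest 3′ untranslated region (GRCm38). The windows lie at chr17:35199679-35199708 (minus strand) for Tnf, chr11:44413473-44413502 (plus strand) for Il12b, chr5:30019677-30019706 (plus strand) for Il6 and chr2:129300109-129300138 (minus strand) for Il1a.
Tnf: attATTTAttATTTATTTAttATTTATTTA
Il12b: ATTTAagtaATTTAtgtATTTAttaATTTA
Il6: tttaattatttttaATTTAttgataATTTA
Il1a: attttatctatgtATTTAtaaatatATTTA

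Tnf carried 8 pentamers in 764 bases, or 10.5 per kilobase, and 5 copies of the nonamer TTATTTATT, which 7.65% of 21037 genes hold at least once in their longest 3′ untranslated region. Vegfa held 1 nonamer and the other members none. Il10 had 8.50 pentamers per kilobase, Il12b 7.53, Tgfb1 7.41, Il6 6.00, Osm 5.90, Vegfa 4.83 and Il1a 2.73, so the density did not separate cytokines from growth factors. Il1rn, the antagonist, held no ATTTA in 1864 bases, a pentamer that 65.2% of genes hold. Igf1 held 18 in its long region of 6308 bases, or 2.85 per kilobase, and the value for Tgfb1 rests on a single one in 135 bases. The value for Il6 comes from 10 in 1668 bases, a region longer than its median annotated transcript of 1052 bases. Transcript ends were read from the reference, and decay was not measured.

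In the order of levels, growth factors took the top 3 places and Il1a, Il12b and Il6 the last 3. Levels are compared between genes in RPKM, that is CPM per kilobase of merged exons. Tgfb1 was highest at 92.0 RPKM on average over the 6 libraries, with 84.9 in the lowest and 94.9 in the highest library. Igf1 followed at 60.2 RPKM (56.0 to 65.4), then Vegfa at 19.6 (17.7 to 21.4) and Tnf at 18.0 (16.2 to 20.0). Il10 stood at 7.47 RPKM (5.76 to 10.1), Il1rn at 4.20 (3.69 to 4.57) and Osm at 3.14 (2.80 to 3.76). Il1a at 2.06 RPKM (0.995 to 3.02) and Il12b at 1.26 (0.829 to 1.59) were the lowest that passed the filter, and Il6 stood at 0.0164.

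Not every step in that order exceeded the spread between libraries. The ranges of neighbours did not overlap for 5 of the 9 steps: Tgfb1 over Igf1, Igf1 over Vegfa, Tnf over Il10, Il10 over Il1rn and Il12b over Il6. Vegfa and Tnf overlapped, as did Il1rn with Osm, Osm with Il1a and Il1a with Il12b. Among the protein-coding genes tested, 96.1% lay below Tgfb1, 93.98% below Igf1, 79.8% below Tnf and 22.4% below Il12b. These levels depend on the length taken for each gene. With the median annotated transcript length in place of merged exons, Tgfb1 stood at 663 RPKM, Igf1 at 436 and Vegfa at 96.1, while Tnf was at 19.1, so that the overlap of Vegfa with Tnf was gone. Il1rn stood at 17.1 RPKM there and passed Il10 at 7.47, and the other members kept their ranks.

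**Figure D1:**
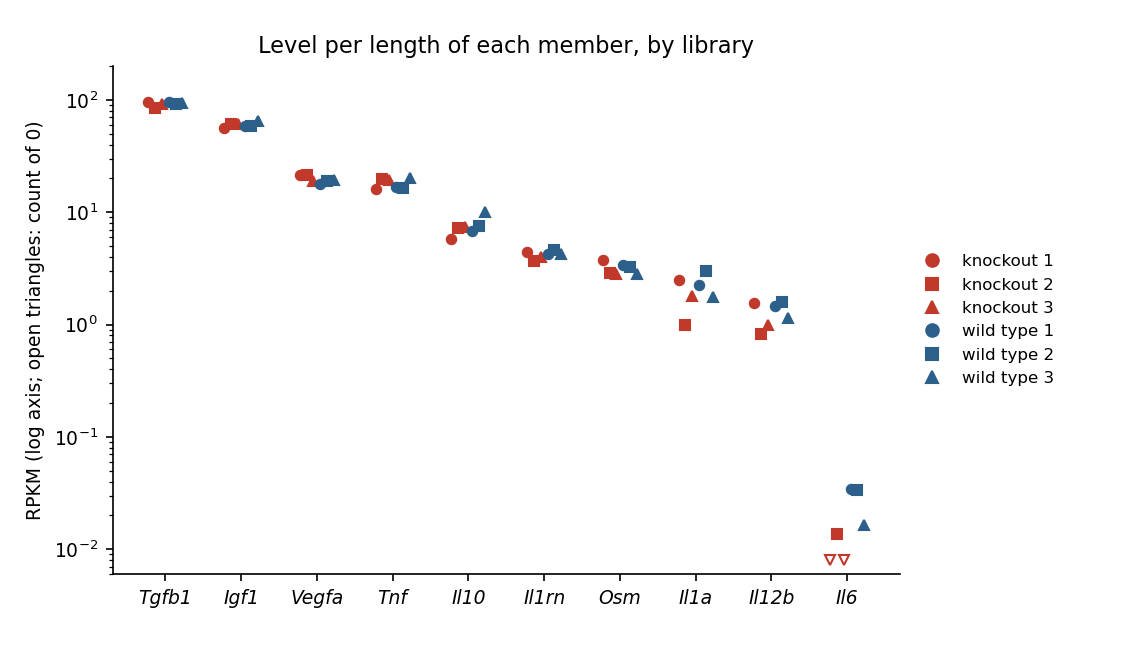
Level of each of the 10 genes in RPKM on a log axis, 1 point per library, with knockout in red, wild type in blue, the replicate number by shape and open triangles for a count of 0. Tgfb1 and Igf1 lie near the top, Il6 lies below 0.05 RPKM in every library, and the colours intermix in each tested gene.

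Il6 was at the limit of detection. It had counts of 0, 1 and 0 in knockout and 2, 2 and 1 in wild type libraries, all under the 3 counts that a count of 0 still allows, which correspond to 0.0392 to 0.0516 RPKM at these depths. No fold is given, and these limits cover counting error only. The promoter and AU-rich sequences of Il6 printed above therefore belong to a gene with almost no messenger in these cells, while its receptor chain Il6ra was at 199 ± 5.62 CPM in wild type and 212 ± 4.20 CPM in knockout (SD, n = 3 each).

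A wider list of 47 other cytokine and growth factor genes places the 10 in context. Of these, 30 were tested. Osteopontin (Spp1, 660 RPKM) and progranulin (Grn, 652 RPKM) stood above all 10 members, Tgfb1 had rank 3 and Igf1 rank 6 of the 57 ligands. Between them lay Mif, at 83.5 RPKM, and Ebi3, the shared subunit of IL-27 and IL-35, at 65.1. Il1b, the other IL-1 agonist, stood at 2.26 RPKM (1.72 to 2.84), within the range of Il1a. Il12a, whose product pairs with that of Il12b to form IL-12, stood at 0.354 RPKM (0.176 to 0.466), below Il12b in all libraries, and Il23a, its alternative partner in IL-23, had 2 counts in all. Il33, Csf3 and Ereg had no count in any library.

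**Figure D2:**
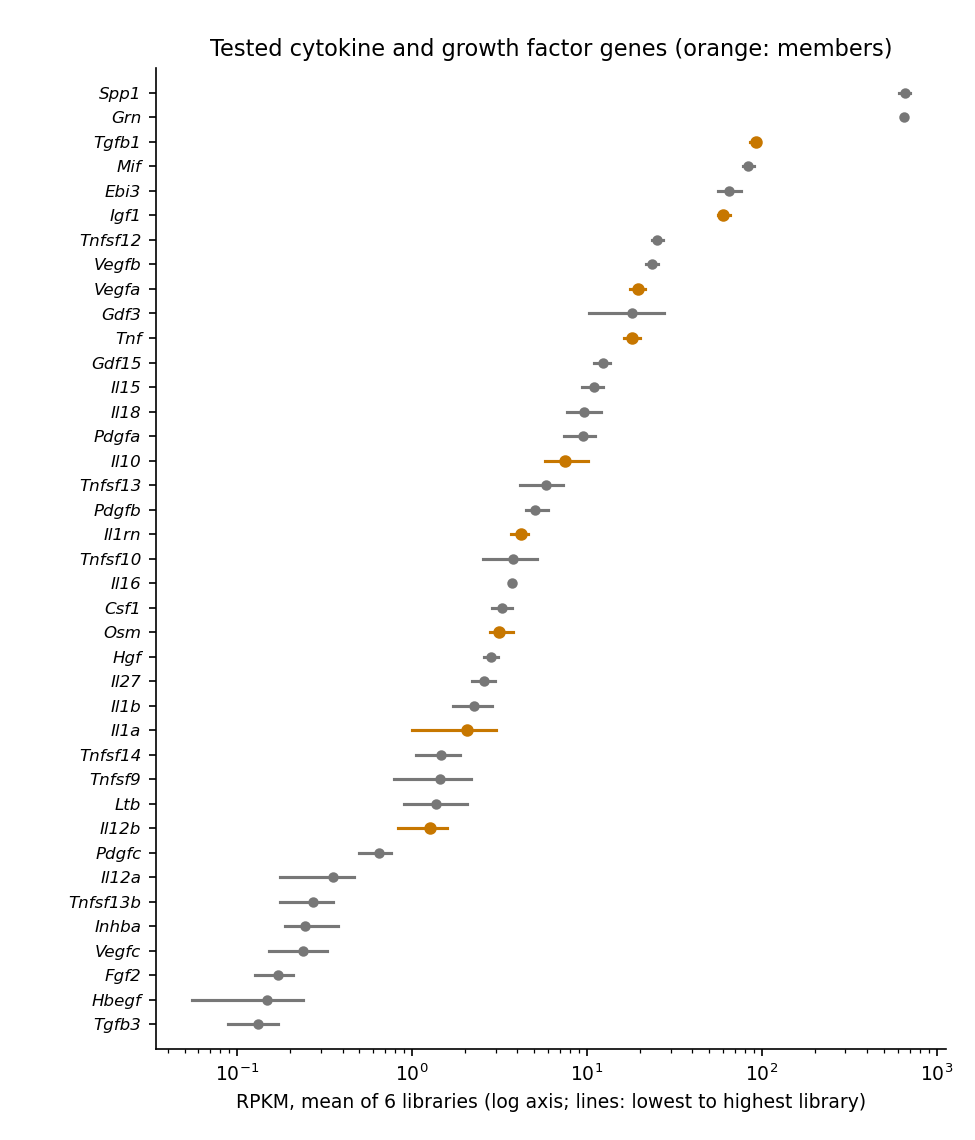
Mean RPKM of the tested cytokine and growth factor genes on a log axis, with a line from the lowest to the highest of the 6 libraries and the members in orange. The 9 tested members spread from Tgfb1 at 92.0 to Il12b at 1.26 RPKM, and Il1a has the widest line among them.

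The comparison of knockout with wild type asks whether messenger levels of these genes differ between the genotypes without a stated trigger. Secreted protein was not measured. None of the 9 tested members was called at an adjusted p under 0.05 in edgeR's quasi-likelihood test, where 0.103% of all tested genes were. At an unadjusted p under 0.05 there was 1 member, Vegfa, or 1 of 9 against 5.44% of tested genes. No tested member had groups that did not overlap in CPM, against 10.8% of tested genes. The log2 fold changes, knockout minus wild type, ran from -0.41 to 0.15 with a median of -0.04, 6 negative and 3 positive, beside a median of -0.0009 over all genes tested. In bulk samples, fewer cells making a messenger and less messenger per cell cannot be told apart.

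**Figure D3:**
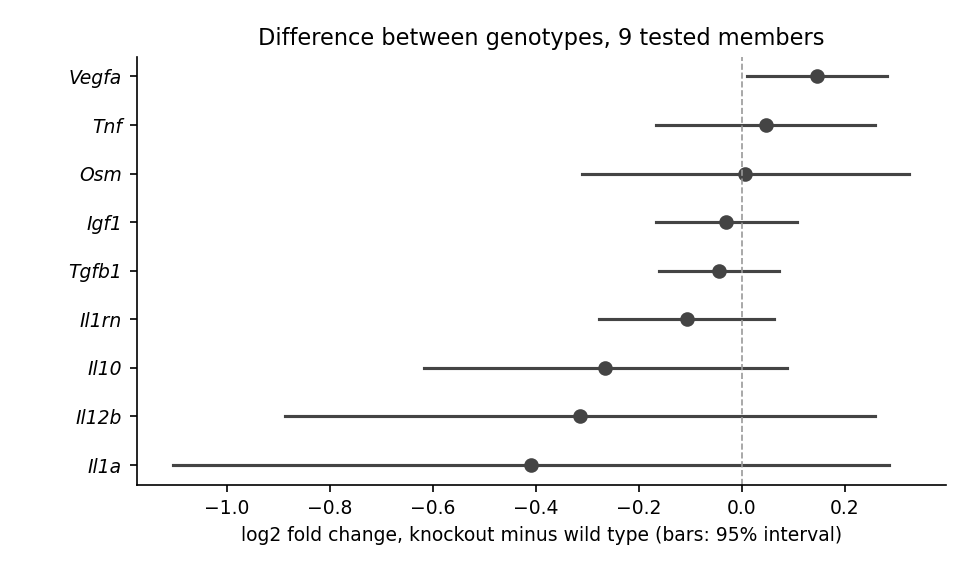
Log2 fold change of each tested member, knockout minus wild type, with bars for the 95% interval. The interval lies just above 0 for Vegfa and crosses 0 for the other 8, and it is widest for Il1a and Il12b.

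Among the inflammatory agonists, Tnf stood at 26.5, 32.1 and 31.5 CPM in knockout replicates 1 to 3 and at 27.3, 27.1 and 32.8 CPM in wild type. Each genotype had libraries near 27 and near 32 CPM, and the means were 30.05 ± 3.07 and 29.1 ± 3.24 CPM (SD, n = 3 each). The fold was 1.03 with a 95% interval of 0.891 to 1.20 (log2 fold change 0.05, SE 0.10, adjusted p = 0.979, edgeR). The log2 fold change fell to -0.0019 without knockout replicate 2 and to -0.0018 without wild type replicate 2.

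Il1a, which encodes an alarmin released from damaged cells, was at 4.95, 1.96 and 3.54 CPM in knockout and at 4.47, 5.96 and 3.499 CPM in wild type. It varied 3.03-fold between the lowest library, knockout replicate 2, and the highest, wild type replicate 2, the widest ratio of the tested members. The fold of 0.753 had an interval of 0.465 to 1.22 (adjusted p = 0.968, edgeR). Without knockout replicate 1 its log2 fold change was -0.76, and without knockout replicate 2 it was -0.12. An antisense transcript, Gm14023, overlaps 222 bases of Il1a exons and had 7 to 15 counts per library.

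Il12b, the p40 chain of IL-12 and IL-23, was at 3.05, 1.63 and 1.94 CPM in knockout and at 2.88, 3.12 and 2.27 CPM in wild type. Knockout replicate 1 lay among the wild type libraries and the other knockout libraries lay below them. The fold was 0.804 with an interval of 0.540 to 1.20 (adjusted p = 0.968, edgeR), and the log2 fold change went from -0.31 to -0.63 without knockout replicate 1 and to -0.13 without knockout replicate 2. Oncostatin M, a ligand of the IL-6 family made by myeloid cells, had levels of 8.53, 6.52 and 6.39 CPM in knockout and 7.68, 7.35 and 6.36 CPM in wild type. The Osm groups overlapped, with a fold of 1.01 and an interval of 0.806 to 1.25 (adjusted p = 0.997, edgeR).

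Of the restraining factors, Il10 was at 7.55, 9.45 and 9.70 CPM in knockout and at 8.89, 9.86 and 13.2 CPM in wild type. Wild type replicate 3 was the highest library and knockout replicate 1 the lowest, and the groups overlapped. The fold was 0.832 with an interval of 0.652 to 1.06 (log2 fold change -0.26, SE 0.16, adjusted p = 0.961, edgeR), and the log2 fold change was -0.08 without wild type replicate 3 and -0.15 without knockout replicate 1. With the first principal component as a term, an alternative added after the data had been seen, Il10 was called lower in knockout (log2 fold change -0.58, SE 0.12, adjusted p = 0.0379, edgeR). That fit called 0.905% of tested genes, and Il10 was the 1 member among them. Knockout replicate 1, the only knockout library on its side of the component, had 7.55 CPM of Il10. The wild type libraries there had 8.89 and 9.86. Wild type replicate 3, the only wild type library on the other side, had 13.2 CPM, above 9.45 and 9.70 for the knockout libraries there. Knockout also lay below wild type on both sides for Tnf and Igf1, that is for 3 of the 9 tested members, and for 13.5% of all tested genes. Each of these comparisons within a side rests on a single knockout or a single wild type library, and the sides come from these same libraries. The component was partly confounded with genotype, so the Il10 call and these values are given as description. The call was made in 1 of 16 alternatives.

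Il1rn was at 24.5, 20.4 and 22.2 CPM in knockout and at 23.6, 25.3 and 23.5 CPM in wild type. Knockout replicate 1 lay within the wild type range and the other knockout libraries below it, with a fold of 0.928 and an interval of 0.826 to 1.04 (adjusted p = 0.968, edgeR). Per length, the antagonist stood above Il1a in every library: the ratio of Il1rn to Il1a in RPKM was 1.76, 3.71 and 2.24 in knockout and 1.88, 1.52 and 2.39 in wild type. The ratio was highest in knockout replicate 2, where Il1a was lowest, and the groups overlapped. Against Il1a and Il1b together it was 0.885, 1.23 and 1.14 in knockout and 0.943, 0.780 and 1.06 in wild type, below 1 in 3 of the 6 libraries. These ratios depend on the length taken for each gene. With the median annotated transcript length, Il1rn stood at 17.1 RPKM and Il1a at 2.06.

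Tgfb1, made as a latent protein that must be activated outside the cell, was at 479, 428 and 464 CPM in knockout and at 478, 461 and 474 CPM in wild type. Its fold of 0.970 had an interval of 0.895 to 1.05 (adjusted p = 0.973, edgeR), the narrowest of the 9 on the log2 scale. Igf1, which supports survival and growth and is made by many tissue macrophages, was at 554, 608 and 607 CPM in knockout and at 580, 579 and 648 CPM in wild type, with a fold of 0.980 and an interval of 0.891 to 1.08 (adjusted p = 0.979, edgeR). Its introns overlap an antisense gene, Igf1os, which had 13 to 22 counts per library.

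Vegfa, the main driver of vessel growth, was at 91.6, 91.9 and 81.3 CPM in knockout and at 75.7, 80.7 and 82.9 CPM in wild type. Knockout replicates 1 and 2 were the highest libraries, and knockout replicate 3 lay inside the wild type range. The means were 88.3 ± 6.00 and 79.8 ± 3.70 CPM (SD, n = 3 each), a fold of 1.11 with an interval of 1.01 to 1.22, and edgeR's unadjusted p of 0.0374 became an adjusted p of 0.908. Its direction was the same in all 16 alternatives, with log2 fold changes from 0.11 to 0.20, and it was called in none.

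Levels of 6 members differed along the first component of the libraries, which did not separate the genotypes but was partly confounded with them. For 6 of the 9 tested members, the CPM of knockout replicate 1 and wild type replicates 1 and 2 did not overlap those of the other 3 libraries, which also held for 21.7% of all genes tested. Il1a, Il12b, Osm and Il1rn were higher on the side of knockout replicate 1. Il1a averaged 5.12 against 3.00 CPM, a ratio of 1.71, Il12b 3.02 against 1.95 CPM (1.55), Osm 7.86 against 6.43 CPM (1.22) and Il1rn 24.5 against 22.0 CPM (1.11). Tnf and Igf1 were lower there: Tnf averaged 26.97 against 32.1 CPM (0.839) and Igf1 571 against 621 CPM (0.919). The sides come from these same libraries and no test is given. Il10, Tgfb1 and Vegfa overlapped between the sides.

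**Figure D4:**
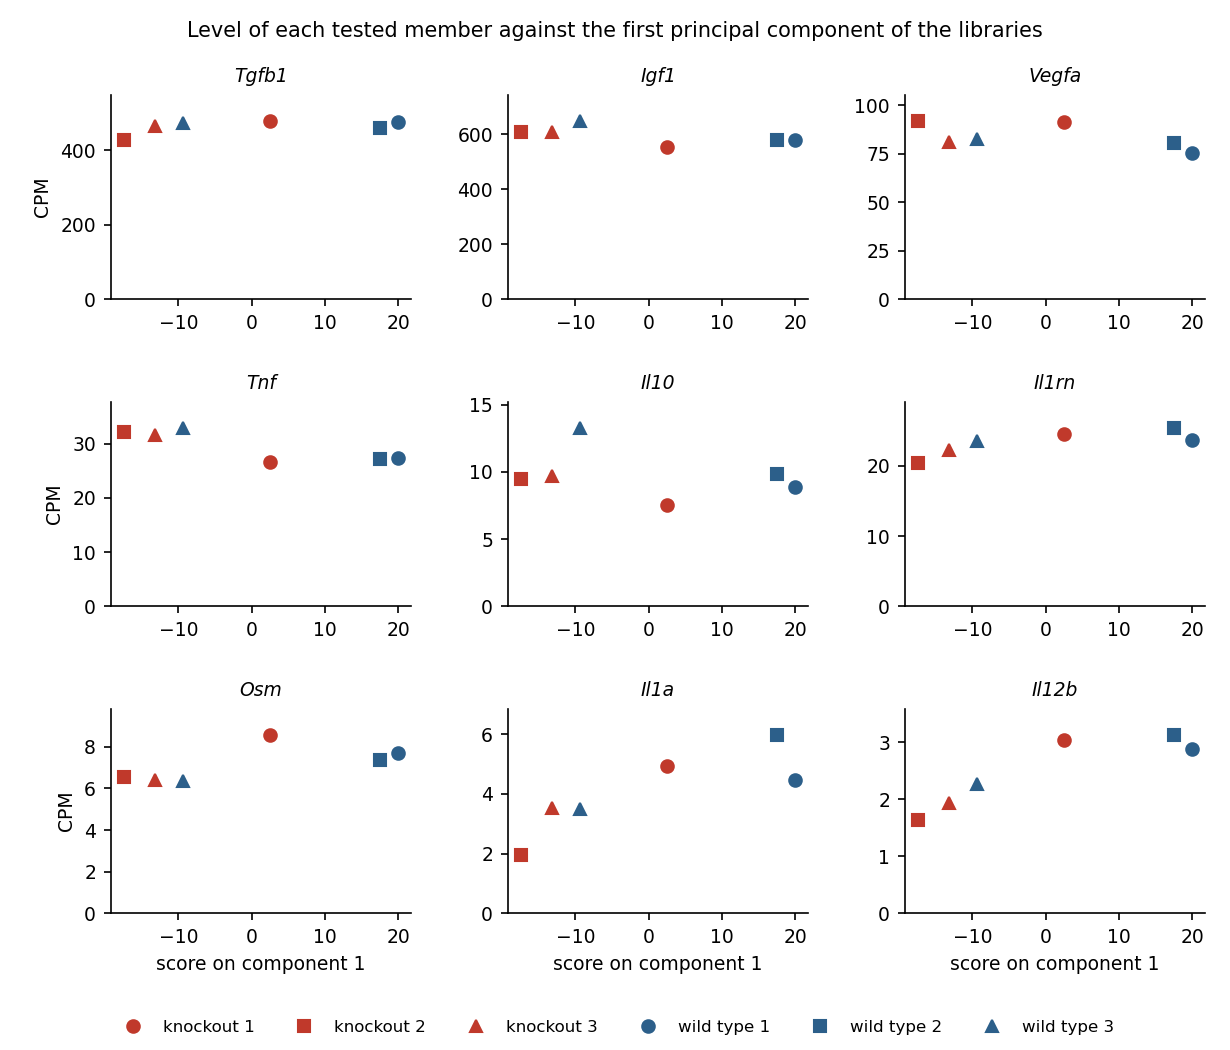
CPM of each tested member against the score of the 6 libraries on the first principal component, computed without the members, with knockout in red, wild type in blue and the replicate number by shape. Il1a, Il12b, Osm and Il1rn are higher to the right, Tnf and Igf1 are lower, and both colours occur on either side.

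Markers of other cells moved along the same line. The 10 dendritic cell markers summed to 204 to 226 CPM on the side of knockout replicate 1 and to 105 to 138 CPM on the other, and all 10 were detected. Itgax, which macrophages also express, made up 77.8% of that sum, and the other 9 summed to 39.6 to 46.8 against 26.6 to 37.1 CPM. Mast cell and basophil markers summed to 25.5 to 33.6 against 18.3 to 25.3 CPM, with Cma1 at a count of 0, and erythroid and platelet markers to 152 to 210 against 102 to 133 CPM, with Hbb-bs at a count of 0. The 9 macrophage markers other than Lyz2 ran the opposite way, at 9618 to 9755 against 10398 to 10761 CPM. Neutrophil markers (565 to 865 against 715 to 835 CPM), lymphocyte markers (105 to 169 against 81.3 to 113 CPM) and stromal and endothelial markers (33.0 to 87.1 against 44.1 to 61.7 CPM) overlapped. Cd4 made up 95.3% of the lymphocyte sum. By genotype, the neutrophil sum was 790 to 865 CPM in knockout and 565 to 715 CPM in wild type. Most of that difference lay in S100a8 (means of 174 and 108 CPM) and S100a9 (294 and 193 CPM), with log2 values of 0.70 and 0.61. Mpo had -0.76, and of the 10 neutrophil markers 7 had positive and 3 negative log2 values. Log2 values were mostly negative for tested markers of mast cells and basophils (5 of 7, median -0.96) and lymphocytes (6 of 6, median -0.70). Markers of erythroid cells and platelets (6 of 6, median -0.52) and of dendritic cells (8 of 10, median -0.36) were mostly negative too. Stromal and endothelial markers had 7 of 9 negative, with a median of -0.13. None of the markers in these lists was called. The part of these cells in the levels of the members was not tested.

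The genes whose log2 CPM was most like that of a member over the 6 libraries are given as a description, since all points share library preparation and depth. For Tnf they were Ncf1, a subunit of the phagocyte NADPH oxidase (Pearson's r = 0.998), Csf1r, the receptor for macrophage colony-stimulating factor (0.997), and P2ry14, a receptor for nucleotide sugars (0.996). For Igf1 they were Txndc11 (0.997), Kctd7 (0.996) and Dram1 (0.995), and for Il1rn they were Leo1 (0.995), B430306N03Rik (0.993) and the integrin gene Itga9 (0.992). Among 9539 genes searched, 397 had an r above 0.9 with Tnf, 309 with Igf1 and 145 with Il1rn.

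Receptors for the members showed no called change, and their levels differed widely. Of 20 receptor chains 19 were tested, 7 with positive and 12 with negative log2 fold changes, a median of -0.03, and none called or below an unadjusted p of 0.05. Il6ra had the smallest p, with a log2 value of 0.09 and SE of 0.04 (edgeR adjusted p = 0.939), and its groups did not overlap. Tnfrsf1a, a TNF receptor, was at 190 ± 5.44 CPM in knockout and 199 ± 6.59 in wild type (SD, n = 3 each). The other TNF receptor gene, Tnfrsf1b, was higher, at 1137 ± 23.0 and 1151 ± 99.2 CPM. Il10rb was at 191 ± 4.41 and 184 ± 2.34 CPM. Il12rb1 was low, at 1.62 and 2.01 CPM, and Osmr, with 59 counts in all, did not pass the filter.

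Proteins that release, activate or bind the members gave the widest single values. Of 16 tested, none was called, and 4 were lower at an unadjusted p under 0.05, where 3.04% of all tested genes were. The median over the list was -0.01. Thbs1, which can activate latent TGF-beta, stood at 146 ± 18.1 CPM in knockout against 179 ± 12.5 in wild type (SD, n = 3 each). Its log2 value was -0.29 with an SE of 0.09 (edgeR adjusted p = 0.734). Lrrc32, a carrier of latent TGF-beta, had a log2 fold change of -0.65 (SE 0.20) at 3.28 and 5.15 CPM in knockout and wild type. Igfbp5 and Igfbp7, of the IGF-binding family, had values of -1.52 (SE 0.50) and -0.65 (SE 0.28). Igfbp5 was at 0.677 ± 0.150 CPM in knockout and 1.96 ± 1.49 in wild type (SD, n = 3 each). Its highest library stood at 3.67 CPM. Without a filter on low counts, edgeR called Thbs1 (adjusted p = 0.00408), Lrrc32 (0.0497) and Igfbp5 (0.00336) lower.

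The lists of signalling and messenger control held small values. None of 20 NF-kB genes was called (7 positive, 13 negative, median -0.02), and Nfkbiz, an inducible nuclear IkB protein that promotes Il6 and Il12b transcription, had a log2 value of -0.22 with SE 0.08 (edgeR adjusted p = 0.903), ahead of Rela at -0.06, Bcl3 at -0.10 and Nfkbid at 0.10. None of 14 genes of messenger stability was called either (median -0.01): Zc3h12a, the RNase regnase-1 that cuts Il6 messenger, had -0.10 (SE 0.05), with 45.7 ± 0.517 CPM in knockout and 49.1 ± 0.997 in wild type (SD, n = 3 each), and Zfp36l1, Tial1 and Khsrp had -0.10, 0.06 and -0.05. Among 16 JAK-STAT and SOCS genes (median -0.03), Jak2, a kinase below several cytokine receptors, had -0.14 (SE 0.05, adjusted p = 0.881, edgeR), Socs2 -0.51, Socs1 0.32 and Stat4 0.24. In TGF-beta signalling (14 tested, 4 positive, 10 negative, median -0.02), Smad7, an inhibitor of the pathway, had 0.31 (SE 0.17), Smad2 0.07 and Smurf1 0.06. The list named for IGF1 receptor signalling takes in PI3K genes broadly, not only those known to act below that receptor (15 tested, median 0.01). In it Pik3cd had the smallest p with -0.11, followed by Pik3cg at 0.09, Pik3r5 at 0.06 and Irs2 at -0.15. None of these genes was called with genotype as the only term.

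The list of hypoxia genes holds regulators of the response to low oxygen, such as Hif1a, Epas1 and Vhl, and genes that it switches on, as it does Vegfa. Of 14 tested, 9 had positive and 5 negative log2 fold changes, with a median of 0.02 and none called. Pfkfb3, an activator of glycolysis, had -0.12 (SE 0.05, adjusted p = 0.908, edgeR), Epas1, which encodes HIF-2 alpha, -0.47 (SE 0.25), Ero1l, also known as Ero1a, 0.10 (SE 0.06) and Vhl -0.06 (SE 0.05). Among the 30 other cytokine and growth factor genes tested, none was called, and Gdf15, a stress-induced member of the TGF-beta superfamily, had the smallest p at 24.3 ± 0.815 CPM in knockout and 21.1 ± 0.817 in wild type (SD, n = 3 each). Its log2 value was 0.20 with SE 0.06 (edgeR adjusted p = 0.734). Spp1 had 0.11, Csf1, the growth factor of macrophages, -0.17 and Tgfb3 -0.50.

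Genes known to rise on inflammatory activation had mostly negative values. All 18 were tested and none was called. In knockout minus wild type, 15 had negative and 3 positive log2 fold changes, with a median of -0.14. At an unadjusted p under 0.05 there were 4 lower and 1 higher, where 3.04% of all tested genes were lower and 2.4% higher. The marker lists of dendritic cells, lymphocytes, mast cells and basophils, erythroid cells and platelets, and stromal and endothelial cells had negative medians too. Their values are given above, and their part in these values was not tested. Nos2, the inducible nitric oxide synthase, was at 0.423 ± 0.228 CPM in knockout and 0.945 ± 0.504 in wild type, and Ptgs2, inducible cyclooxygenase, at 0.680 ± 0.0794 and 1.03 ± 0.117 CPM (SD, n = 3 each). Ccl5, a chemokine, had a log2 value of -0.49 with SE 0.17 (edgeR adjusted p = 0.881), Cd40, a costimulatory receptor, one of -0.28 and Lcn2, an iron-trapping protein abundant in neutrophils, one of 0.53 (SE 0.12, adjusted p = 0.446). Lcn2 was called by the DESeq2 Wald test (adjusted p = 0.00323) and, like Ccl5, without a filter. With the first component as a term, the edgeR fit called 9 of the 175 genes tested in the 10 lists, all lower in knockout. Over all genes that fit called 123, of which 99 were lower, or 0.729% of those tested. The 9 genes were Saa3, Acod1, Cxcl10, Irf7, Cd40 and Ccl5 of this list, the death ligand gene Tnfsf10, Nfkbiz and Mapkapk2. They also went into the component, which was partly confounded with genotype, so these calls are given as description. Log2 fold changes of the 9 genes in that fit ran from -0.92 for Saa3 to -0.27 for Mapkapk2. With genotype as the only term, Saa3 had 0.04, Mapkapk2 -0.01, Acod1 -0.08 and Cxcl10 -0.11. Tnfsf10, Irf7, Nfkbiz, Cd40 and Ccl5 had -0.12, -0.13, -0.22, -0.28 and -0.49 with genotype alone.

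**Figure D5:**
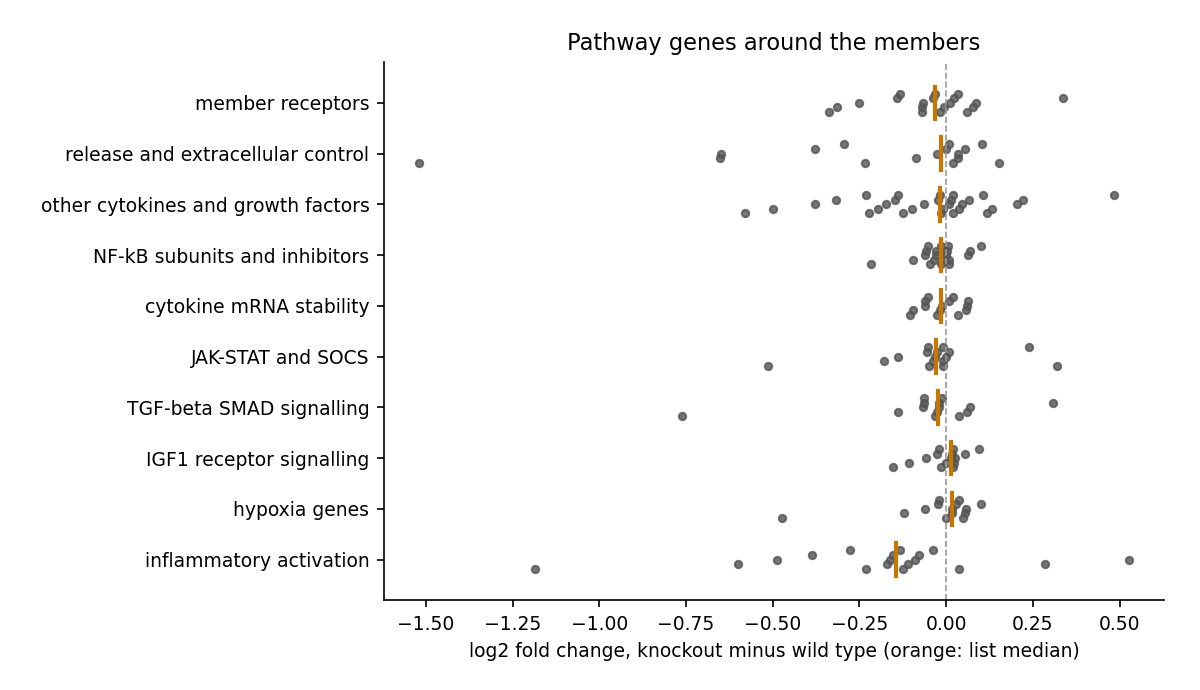
Log2 fold change, knockout minus wild type, of each tested gene in the 10 lists around the members, with the list median in orange. Medians lie between -0.03 and 0.02 except for inflammatory activation at -0.14, and no point is a called gene.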

How the data were processed

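RNA of 6 macrophage libraries, 3 per genotype, was sequenced. The deposited values are raw counts for each Ensembl gene ID. HISAT2, featureCounts and the build GRCm38 are named in the submitters' processing notes, without versions. Annotation release and strandedness are not given in the sources used, so reads from overlapping genes on opposite strands cannot be told apart.

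Symbols, positions and exon lengths came from GENCODE M21 on the same build, and 181 IDs had no entry in it. All 280 entries of the gene lists matched a gene. In R 4.3.3, edgeR 4.0.16 was used for TMM scaling and for the filter on low counts (filterByExpr). The quasi-likelihood test of edgeR, two-sided and with genotype as the only term, compared the groups, and p-values were adjusted by Benjamini-Hochberg over all 13588 genes tested. SEs and 95% intervals follow from each gene's F statistic. CPM are counts relative to the TMM-scaled library size, and RPKM are CPM per kilobase of merged exons. The procedure was first tested on simulated data.

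The members and lists were chosen with earlier results of these data known. The rule for named genes takes all 10 members, called genes and up to 4 genes with the smallest p in each list, and the 3 genes most like Tnf, Il1rn and Igf1. A gene that the rule names is not reported here. For the lists of cell type markers the text gives the summed level in place of single genes. Other settings tried were 3 scalings, the DESeq2 1.42.0 Wald test, limma-voom (limma 3.58.1), 2 other filters, a block for replicate number, and the omission of each library in turn. Bias-corrected dispersions and the first principal component as a term were added after the data had been seen. Promoters were read from a RefSeq table (GRCm38.p6), which held 8 of the 10 members, and transcript ends from GENCODE M21.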

Additional observations from a re-analysis of the deposited data

How the results depend on the processing

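The count of called genes, 14 in all, was 40 with the DESeq2 Wald test, 151 without a filter, 5 when genes under 5 CPM on average were left out and 123 with the first component as a term, and 4 to 12 without 1 library. No member was called in any of these fits except Il10 with the first component as a term, where 1 member was called (log2 fold change -0.58). The median over members was -0.14 to -0.0424 without 1 library; without knockout replicate 1 it was -0.14. Genes of the 10 lists called numbered 1 with the DESeq2 test, 6 without a filter and 9 with the first component as a term. Direction turned for Igf1 with library totals (0.0151), for Osm with the replicate block (-0.00257), and for Tnf (-0.16), Il1a (0.12) and Il12b (0.10) with the first component as a term. Without 1 library, the lowest and highest values were -0.0019 and 0.14 for Tnf, -0.14 and 0.0805 for Osm, -0.0761 and 0.00389 for Tgfb1 and -0.0565 and 0.0264 for Igf1. The cause of these turns was not tested. Vegfa, Il10 and Il1rn kept their direction in all 16 alternatives. Replicate numbers share only a number: deviations of same-numbered libraries correlated at 0.06, -0.12 and 0.04, and with the replicate block the count of called genes was 17 and no member was called. Depth limited Il6, with 6 counts in all. Il1a and Il12b, with 648 and 398 counts, varied most between libraries among tested members (CV 34.0% and 25.2%).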
